A study of Mus musculus with 41 samples.

Results

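The replication-dependent histone genes were examined in differentiating mouse neural cells. These are the genes of the Hist1, Hist2, Hist3 and Hist4 clusters, taken as every gene symbol that begins with Hist1h, Hist2h, Hist3h or Hist4h. There were 68 such genes among the 24410 gene symbols measured: 6 for the linker histone H1, 18 for H2A, 19 for H2B, 12 for H3 and 13 for H4. In mm10 the Hist1 cluster held 54 of them on chromosome 13 (chr13:21715763-23934851), Hist2 held 10 on chromosome 3 (chr3:96219865-96270132), Hist3 held 3 on chromosome 11 (chr11:58948920-58956830) and Hist4 held 1 on chromosome 6 (chr6:136801553-136804415).

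The cells came from R1-iCas9, a mouse embryonic stem cell line whose Cas9 is turned on by doxycycline. At day 0 they received 5 pooled guides for 1 of 4 genes, which gave the Eed KO, Ezh2 KO, Brd8 KO and Nr6a1 KO cells, or a non-targeting control guide (NT), and all were given doxycycline. All were then driven toward spinal cord progenitors, first in bFGF, then in the GSK3β inhibitor CHIR99021, then in retinoic acid with the Smoothened agonist SAG, and from then on in SAG alone. RNA was sequenced at days 7, 9 and 11, which gave 41 libraries in 15 groups. There were 3 libraries per group, but 2 for Nr6a1 KO at each day and 2 for Brd8 KO at day 9. Each library came from a transfected population and not from a clone, and no share of edited cells is given in the labels. The labels do not say whether replicates were separate cultures, so the p-values below measure the spread between these libraries, which may be technical.

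Histone genes of these clusters are transcribed when DNA is copied, and their mRNAs supply the proteins that package the new DNA. H2A, H2B, H3 and H4 form the core of the nucleosome, and H1 binds the linker DNA between cores. Their mRNAs have no introns and normally no poly(A) tail, and end in a short stem-loop that the protein SLBP binds for processing, translation and decay. The libraries were made from total RNA depleted of ribosomal RNA, a method that does not need a poly(A) tail.

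The stem-loop is shown first, since it is the element that sets this gene family apart from other mRNAs. A search of the annotated transcripts after each stop codon found one in 46 of the 68 genes, at 21 to 58 bases from the stop codon (median 31). The letters of the stem differed by class: GGCUCU opened the stem in 34 genes, none of them an H4 gene, whereas GGCCCU and GGUCCU opened it in 10 and 2 genes, all for H4. Of the others, 16 had fewer than 16 annotated bases after the stop codon, and 6 more had no match. The most frequent form of each stem follows, 5′ to 3′, with the bases of the stem in capitals.
26 genes of H1, H2A, H2B and H3: GGCUCUuuucAGAGCC
7 H4 genes, Hist4h4 among them: GGCCCUuuucAGGGCC
2 H4 genes, Hist1h4b and Hist1h4j: GGUCCUuuucAGGACC
In 23 of the 46 genes the annotated transcript ran more than 100 bases past the stem-loop, for example 2445 bases in Hist4h4 and 1643 bases in Hist3h2a.

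Promoters were taken from RefSeq (GRCm38.p6), as 250 bases before and 50 bases after the start of each gene, and 61 of the 68 genes had one in the table. The letters CCAAT were present, on either strand, in 52 of the 61 promoters (85.2%) and in 37.9% of all 27025 promoters in the table. All promoters of the 6 H1, 17 H2A, 16 H2B and 10 H3 genes held them, and 3 of the 12 for H4. The letters TATAAA were in 57.4% of the histone promoters and 14.2% of all promoters. By class they were in 4 of 6 H1, 11 of 17 H2A, 8 of 16 H2B, 4 of 10 H3 and 8 of 12 H4 promoters. The octamer ATTTGCAT was in 7 of 17 H2A and 6 of 16 H2B promoters, in none of the H1, H3 or H4 promoters, and in 1.75% of all promoters. The letters AAACACA, known as the H1 box, were in 5 of 6 H1 promoters and 7.14% of all promoters. None of these 4 motifs contains another, and both strands were searched for each. The promoters of an H1, an H2B and an H4 gene are printed because they show these class differences and because the counts of these genes, used below, were nearly all whole. Capitals mark the 4 motifs in either orientation.
Hist1h1b, chr13:21780576-21780875, minus strand: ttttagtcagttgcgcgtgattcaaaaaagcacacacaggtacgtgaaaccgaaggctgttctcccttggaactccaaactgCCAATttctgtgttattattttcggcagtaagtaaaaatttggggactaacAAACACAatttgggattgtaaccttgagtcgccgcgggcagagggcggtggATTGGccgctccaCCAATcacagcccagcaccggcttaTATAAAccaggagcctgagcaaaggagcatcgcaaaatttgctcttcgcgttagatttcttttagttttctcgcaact
Hist2h2bb, chr3:96269450-96269749, plus strand: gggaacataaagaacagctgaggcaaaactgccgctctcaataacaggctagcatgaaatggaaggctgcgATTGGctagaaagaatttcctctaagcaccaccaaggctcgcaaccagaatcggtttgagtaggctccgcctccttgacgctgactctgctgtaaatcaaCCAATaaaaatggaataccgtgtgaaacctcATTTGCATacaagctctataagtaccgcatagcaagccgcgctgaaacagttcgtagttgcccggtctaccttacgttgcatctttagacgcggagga
Hist4h4, chr6:136804382-136804681, minus strand: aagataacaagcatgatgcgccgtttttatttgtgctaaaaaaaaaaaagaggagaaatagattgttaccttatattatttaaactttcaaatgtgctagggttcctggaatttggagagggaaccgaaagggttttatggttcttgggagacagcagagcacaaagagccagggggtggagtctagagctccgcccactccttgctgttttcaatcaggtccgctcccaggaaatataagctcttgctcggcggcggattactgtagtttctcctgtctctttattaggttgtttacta
These are matches of letters in a window and not measured binding sites.

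Levels below are in CPM, which is a gene's count as a part of its library's total, with library sizes scaled by the trimmed mean of M-values (TMM). Library totals were 8581282 to 38240227 estimated counts (median 12721067). A gene was called changed when its adjusted p was under 0.05 in edgeR's quasi-likelihood test, with Benjamini-Hochberg adjustment over the 15204 genes tested, and 64 of the 68 histone genes had enough counts for the test. The 4 others were Hist1h2aa, Hist1h2ba, Hist2h2aa2 and Hist2h3c1. The last 2 were at 0 in every library, and their coding sequences are 100% identical to those of Hist2h2aa1 and Hist2h3c2. Near-identical copies are the rule here: 51 of the 67 protein-coding genes shared at least 95% of their coding bases with another one. Of the histone values, 82.4% were not whole counts (tolerance 1e-09), against 2.95% over all genes. Whether this comes from reads shared between copies was not tested, and the counting tool is not given. Hist1h1c, Hist1h1d and Hist1h1e were not whole in all 41 libraries, though 0 H1 genes had a copy at 95% or more. Values of single genes with a near-identical copy are uncertain. In 7 of the 64 tested genes the counts were whole in all but at most 3 libraries (Hist1h1a, Hist1h1b, Hist1h1t, Hist2h2bb, Hist2h2be, Hist2h4 and Hist4h4), and these carry much of what follows. Transcripts of the 4 targeted genes were not lower by this test in the cells meant to lack them: Ezh2 was higher in Ezh2 KO at day 11 (176.2 ± 20.2 CPM, against 136 ± 17.1 CPM in NT, SD, n = 3 each, adjusted p = 0.00458 in edgeR), and the others were not called. A Cas9 cut need not remove a transcript, so these levels do not check the labels.

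5 libraries stood apart and bear on the H2A and H3 results. The summed level of H2A and H3 divided by that of H1, H2B and H4 was 0.441 in Nr6a1 KO day 7 replicate 3, 0.417 in both Eed KO day 9 replicate 1 and Ezh2 KO day 9 replicate 3, 0.668 in Ezh2 KO day 11 replicate 3 and 0.584 in Nr6a1 KO day 11 replicate 3. In the other 36 libraries it was 0.818 to 1.08. These 5 were among the 7 deepest libraries, and the deepest of all was among them. Their shortfall was larger among histone genes of high GC content, to an unequal degree. The 24 histone genes with a coding GC of at least 67% are 13 H2A and 11 H3 genes. The 5 libraries were picked by their low H2A and H3 counts, so GC content and class cannot be told apart here. Their median log2 ratio to the other libraries of the group was -2.03 in Eed KO day 9 replicate 1, -1.38 in Ezh2 KO day 9 replicate 3 and -1.62 in Nr6a1 KO day 7 replicate 3. It was nearer 0 in Ezh2 KO day 11 replicate 3, at -0.45 with 19 of the 24 below 0, and in Nr6a1 KO day 11 replicate 3, at -0.17 with 15 below 0. For the 37 genes under 67% the medians were -0.46, 0.11, -0.06, 0.02 and 0.45 in the same order of libraries. Outside the clusters, the 77 tested genes with a transcript GC of at least 65% had medians of -0.31, -0.29, -0.35, -0.19 and -0.12. The 645 genes from 60% to 65% had -0.06, -0.03, -0.02, -0.08 and -0.01, also in that order. The 5 libraries also had 27.5 to 82.0 CPM of Hist1h2ap, whose coding sequence is identical to that of Hist1h2ao and which had counts in 6 of the other 36 libraries. The part of GC content, depth or preparation in this was not tested. Some results below are also given without these 5 libraries, but not every result that changed.

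**Figure D1:**
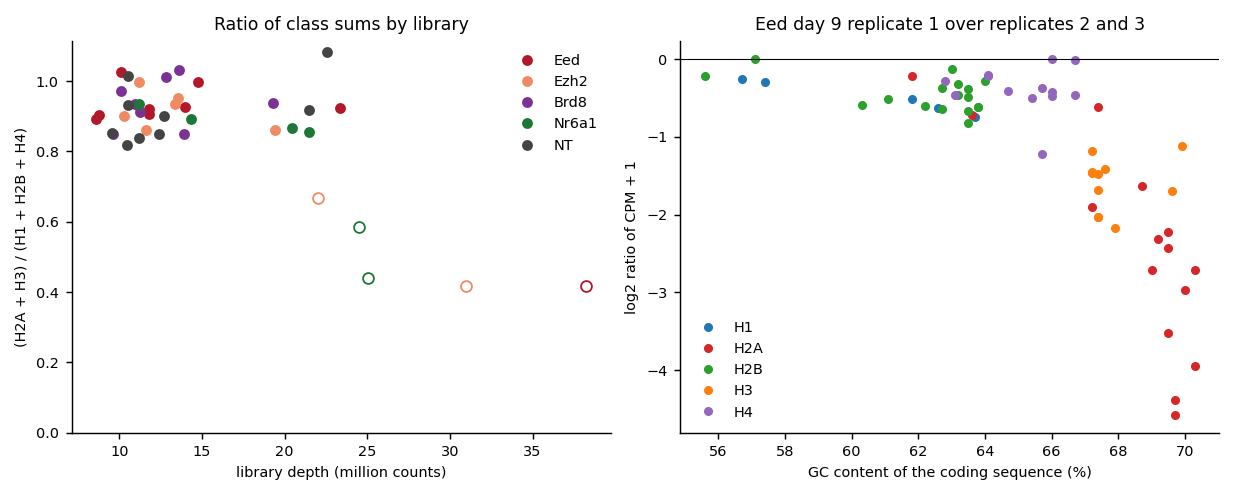
Left, the summed CPM of H2A and H3 divided by that of H1, H2B and H4 in each library, with the 5 libraries from 0.417 to 0.668 as open symbols and the other 36 between 0.818 and 1.08. Right, for members with a mean of at least 2 CPM, the log2 ratio of a library that stands apart to the other libraries of its group against the coding GC percent; Hist1h2ap is not drawn.

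In NT cells, histone mRNA fell with time. The 68 genes together had 3758, 4339 and 3254 CPM in the 3 NT libraries of day 11, 7939, 8652 and 6229 CPM in those of day 9, and 14260, 13650 and 13490 CPM in those of day 7. The 3 days did not overlap, and the share of all counts was 0.393% at day 11, 0.769% at day 9 and 1.27% at day 7. In bulk RNA, fewer cells in S phase and less histone mRNA per cell cannot be told apart. Between day 11 and day 7, 57 of the 64 histone genes were lower and 1 was higher, where 45.2% of all tested genes were called, 23.2% lower and 22% higher. The median log2 change of the histone genes was -1.96. At day 9 against day 7, 35 were lower and 0 higher (27.7% of all genes called, 13.3% lower), and at day 11 against day 9, 44 were lower and 0 higher (23.2% of all genes called, 12.7% lower). Without the 5 libraries, 49 genes were lower at day 9 than at day 7 (27.1% of all genes called).

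The decline ran through every class. Between day 11 and day 7 of NT, 5 of 6 H1, 14 of 16 H2A, 15 of 18 H2B, 11 of 11 H3 and 12 of 13 H4 genes were lower, with median log2 changes of -1.72, -2.28, -2.03, -1.96 and -1.48 in that order of classes. Hist1h1a, a linker histone gene, had 78.9, 81.3 and 50.6 CPM in NT at day 11, against 335.5, 363.2 and 350.1 CPM in NT at day 7. The day 11 values were all below those of day 7, and the log2 change was -2.31 ± 0.18 (SE), adjusted p = 1.36e-11 in edgeR. Hist2h2bb, an H2B gene, had 46.5, 33.4 and 46.3 CPM at day 11, against 165.5, 148.2 and 175.8 CPM at day 7 (log2 change -1.96 ± 0.14, adjusted p = 1.59e-14 in edgeR). Hist2h4, an H4 gene, fell by 1.69 on the log2 scale (adjusted p = 3.55e-10 in edgeR). Hist4h4, the single gene of its cluster, fell less, with a log2 change of -1.25 ± 0.23 (adjusted p = 6.76e-05 in edgeR); 1 of its libraries at day 11 had 132.5 CPM, against 236.2 CPM in the lowest of day 7. The largest falls among called genes with at least 2 CPM at day 7 were those of Hist1h2br (-3.87), Hist1h2ah (-2.74) and Hist1h3b (-2.64). Of these, Hist1h2br is an H2B gene whose coding sequence is 100% identical to that of Hist1h2bq, and it was at 0 in 2 of the 3 NT libraries of day 11; with only the compared groups in the fit it was not called (adjusted p = 0.119).

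The earlier of the 2 steps gave falls of similar size in single H2B genes. Hist1h2bp had 23.4 ± 3.64 CPM in NT at day 9 and 63.0 ± 5.30 CPM in NT at day 7 (SD, n = 3 each), a log2 change of -1.43 with adjusted p = 1.69e-07 in edgeR. Hist1h2bj and Hist1h2bh, also for H2B, followed with -1.41 and -1.28. From day 9 to day 11 the genes at the head were Hist1h2br (-2.71), Hist1h2ag (-1.80) and Hist2h2ac (-1.65), which are an H2B and a pair of H2A genes. The call for Hist1h2ag was lost without any single one of the 3 NT libraries of day 9 (adjusted p = 0.0748, 0.115 and 0.0534 in edgeR) and without replicate 2 or 3 of day 11 (0.15 and 0.12), and that for Hist1h2br with only the compared groups in the fit (0.384). Without the 5 libraries that stood apart, Hist1h2ag was called, with a log2 change of -1.80 and adjusted p = 6.7e-05 in edgeR.

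**Figure D2:**
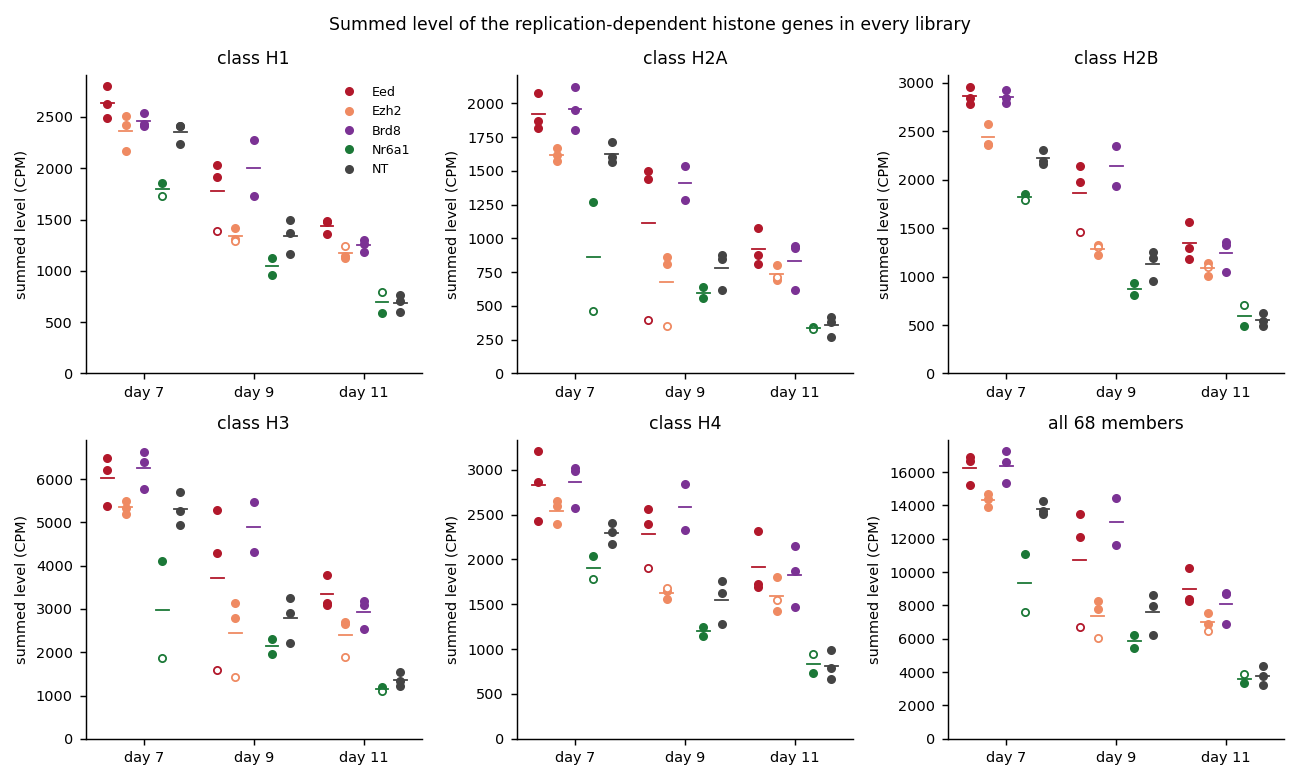
Summed CPM of the members of each histone class by genotype and day, with a point per library and bars at the group means; open symbols are the 5 libraries with few H2A and H3 counts. In NT the sum over all 68 genes was 3784 ± 542.5 CPM at day 11 and 13800 ± 404 CPM at day 7.

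Histone mRNA was higher at day 11 in Eed KO than in NT. EED and EZH2 are subunits of Polycomb repressive complex 2, which methylates histone H3 at lysine 27, and EZH2 is its catalytic subunit. The 68 genes summed to 8383, 10230 and 8295 CPM in the Eed KO libraries of day 11, against 3758, 4339 and 3254 CPM in those of NT. Every Eed KO library was above every NT library of that day and below every NT library of day 7. Of the 64 genes tested, 50 were higher and 0 lower in Eed KO, where 23.7% of all genes were called and 13.1% were higher. The median log2 change of the histone genes was 1.29, and that of all genes 0.02. The number of genes higher was 42 to 49 when 1 library was left out and 57 without the 5 libraries that stood apart (22.8% of all genes called).

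Ezh2 KO showed 37 higher and 0 lower genes at day 11, where 7.98% of all genes were called and 5.19% were higher. The sums were 6914, 7569 and 6487 CPM in Ezh2 KO, again all above the 3 NT libraries, and the median log2 change was 0.99. Without the NT replicate 3, 22 genes were called, and without the 5 libraries, 49 (5.87% of all genes called). The difference between Eed KO and Ezh2 KO at day 11 was tested directly: 0 of the 64 genes were called in edgeR, with 2.95% of all genes called. At an unadjusted p under 0.05 there were 9, and DESeq2 called 2; edgeR called 1 without Eed KO replicate 1 and 1 without Ezh2 KO replicate 2. The log2 difference of Eed KO from Ezh2 KO was positive in 61 of the 64, with a median of 0.36.

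Brd8 KO gave 46 higher and 0 lower genes at day 11, where 17.6% of all genes were called and 10.1% were higher. BRD8 is a bromodomain subunit of the NuA4/TIP60 histone acetyltransferase complex. The sums in Brd8 KO were 8673, 8765 and 6858 CPM, above those of the NT libraries, with a median log2 change of 1.17 and 55 genes called without the 5 libraries (17.2% of all genes called). The NT libraries serve all these comparisons, so their results share the error of those 3 libraries.

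Linker histone genes moved together. Hist1h1a had 159.2, 185.9 and 172.9 CPM in Eed KO at day 11, 122.5, 139.2 and 169.1 CPM in Ezh2 KO, and 176.7, 145 and 145.3 CPM in Brd8 KO, against 78.9, 81.3 and 50.6 CPM in NT. No library of these knockouts overlapped with NT. The log2 changes were 1.29 in Eed KO (adjusted p = 3.06e-06 in edgeR), 1.03 in Ezh2 KO (0.000318) and 1.14 in Brd8 KO (2.52e-05). Hist1h1b had 185.2, 203.3 and 185.3 CPM in Eed KO, 170.9, 140.1 and 173.4 CPM in Ezh2 KO and 202.3, 180.9 and 181.2 CPM in Brd8 KO, against 82.9, 84.4 and 82.4 CPM in NT, again without overlap. Hist1h1c, Hist1h1d and Hist1h1e were called higher in the same 3 knockouts, with log2 changes of 0.91 to 1.06 in Eed KO, 0.64 to 0.75 in Ezh2 KO and 0.66 to 0.91 in Brd8 KO. Without NT replicate 3 the call for Hist1h1c in Ezh2 KO was lost (adjusted p = 0.0653 in edgeR). The sixth H1 gene, Hist1h1t, is known as the testis linker histone; it had counts in 20 of the 41 libraries, with 1.33 CPM at most, and was not called.

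Among the H2B genes, 15 of 18 were higher at day 11 in Eed KO and 14 of 18 each in Ezh2 KO and Brd8 KO. Hist2h2bb had 94.7, 116.4 and 98.2 CPM in Eed KO, 84.2, 94.4 and 96.4 CPM in Ezh2 KO and 113.2, 118.7 and 98.7 CPM in Brd8 KO, against 46.5, 33.4 and 46.3 CPM in NT. The lowest knockout library thus stood well above the highest NT library. The log2 changes were 1.29 ± 0.14 in Eed KO, 1.13 ± 0.13 in Ezh2 KO and 1.39 ± 0.14 in Brd8 KO, with adjusted p of 6.96e-09, 1.25e-06 and 2.96e-09 in edgeR. Hist1h2bk, Hist1h2bg and Hist1h2be, the H2B genes with the most counts beside it, changed by 1.12 to 1.43 in Eed KO, 0.77 to 1.04 in Ezh2 KO and 1.08 to 1.28 in Brd8 KO on the log2 scale; Hist1h2bg was not called in Ezh2 KO without NT replicate 3 (adjusted p = 0.101 in edgeR). Hist1h2br headed the list in all 3 knockouts at day 11 with log2 changes of 2.99, 2.63 and 2.57, on 44.5, 40.6 and 30.5 CPM in Eed KO, 24.6, 29.4 and 36.6 CPM in Ezh2 KO and 34.6, 29.0 and 23.2 CPM in Brd8 KO, against 0, 0 and 15.7 CPM in NT. Its size rests on the 2 NT libraries without counts, in a gene with an identical copy, and with only the compared groups in the fit it was called in none of the 3 (adjusted p = 0.376, 0.555 and 0.509 in edgeR).

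The H4 genes behaved alike, with 12, 11 and 12 of 13 higher at day 11 in Eed KO, Ezh2 KO and Brd8 KO. Hist2h4 had 168, 204.1 and 220.4 CPM in Eed KO, 147.5, 174.4 and 131.9 CPM in Ezh2 KO and 183.6, 189.4 and 152 CPM in Brd8 KO, against 62.3, 75.3 and 70.2 CPM in NT. Its log2 changes were 1.51, 1.13 and 1.34 (adjusted p = 3.57e-08, 2.58e-05 and 4e-07 in edgeR). Hist4h4, whose promoter above holds none of the 4 motifs, had 260.5, 246.1 and 226.8 CPM in Eed KO, 223.9, 229.8 and 161 CPM in Ezh2 KO and 324.4, 242.7 and 196.6 CPM in Brd8 KO, against 132.5, 104.4 and 73.1 CPM in NT. Every library of these knockouts was above the 3 NT libraries, with log2 changes of 1.24, 0.98 and 1.30 (adjusted p = 0.000226, 0.00756 and 0.000197 in edgeR). Its call in Ezh2 KO was lost without NT replicate 3 (0.0719), and those in Ezh2 KO and Brd8 KO with only the compared groups in the fit (0.128 and 0.0717). Hist1h4f changed by 1.76, 1.38 and 1.71. Hist1h4j, with the rarer GGUCCU stem, changed by 2.35 in Eed KO and 2.56 in Brd8 KO, at 9.02 and 11.2 CPM in their highest libraries and 0 in 2 of the NT libraries. Its call in Eed KO was lost without Eed KO replicate 2 or NT replicate 3 (adjusted p = 0.0548 and 0.0564 in edgeR), and both calls with only the compared groups in the fit (0.4 in Eed KO and 0.473 in Brd8 KO).

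With all libraries, H3 and H2A genes gave fewer calls in Ezh2 KO. Of the 11 H3 genes, 11 were higher at day 11 in Eed KO, 4 in Ezh2 KO and 10 in Brd8 KO. Of the 16 H2A genes, 7, 3 and 5 were higher. Without the 5 libraries that stood apart, 11 H3 genes were higher in each of the 3 knockouts, and 15, 10 and 13 H2A genes were higher in Eed KO, Ezh2 KO and Brd8 KO. Hist2h3c2, the H3 gene with the most counts, had 630, 662.5 and 497.6 CPM in Eed KO, 520.1, 481.2 and 339.6 CPM in Ezh2 KO and 593.4, 563.1 and 467.9 CPM in Brd8 KO, against 243.9, 283.4 and 240.4 CPM in NT. The lowest Ezh2 KO value came from replicate 3, 1 of the 5 libraries that stood apart. The log2 change was 1.22 in Eed KO and 1.08 in Brd8 KO (adjusted p = 0.00519 and 0.0164 in edgeR), and 0.80 in Ezh2 KO with an adjusted p of 0.125. The call in Brd8 KO was lost without Brd8 KO replicate 1, NT replicate 1 or NT replicate 3 (adjusted p = 0.058, 0.0522 and 0.063). Hist1h3b changed by 1.79 in Eed KO (adjusted p = 0.00466) and 1.72 in Brd8 KO (0.00873), and by 1.23 in Ezh2 KO, where it was not called (0.103). Hist2h2aa1, an H2A gene, was called in all 3 knockouts with log2 changes of 1.12, 0.95 and 1.01. In Ezh2 KO its call was lost without Ezh2 KO replicate 2 or 3 or NT replicate 1 or 3 (adjusted p = 0.0562, 0.161, 0.0728 and 0.152 in edgeR) and without the 5 libraries (0.121), and in Brd8 KO without Brd8 KO replicate 2 or NT replicate 3 (0.0604 and 0.0618). The median change of the H2A genes, 1.44, 1.08 and 1.18 in Eed KO, Ezh2 KO and Brd8 KO, was no smaller than that of the H1 genes (1.06, 0.71 and 0.84). The median quasi-dispersion, edgeR's measure of spread between libraries beyond counting, was 14.6 in the H2A genes and 8.37 in the H3 genes, against 2.04 in the H1 genes, 1.98 in the H2B genes and 3.06 in the H4 genes. Without the 5 libraries it was 3.40 for H2A and 2.47 for H3, against 1.22 for H1, 1.55 for H2B and 3.38 for H4. This spread is estimated once per gene over all groups, so it also enters comparisons that hold none of the 5 libraries.

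The knockouts differed from NT less, or not detectably, at the earlier days. At day 7, 2 genes were higher in Eed KO (8.73% of all genes called, 2.86% higher), and both were H2B genes. That count is near the share of all genes that were higher, so by itself it does not set the histone genes apart. Hist2h2bb had 219 ± 12.9 CPM in Eed KO and 163.2 ± 13.9 CPM in NT (SD, n = 3 each; log2 change 0.42, adjusted p = 0.0297 in edgeR). Hist1h2bb had 221.4 ± 24.9 CPM in Eed KO and 150.3 ± 13.1 CPM in NT (0.56, adjusted p = 0.0354 in edgeR). Neither count nor call was firm, since 0 genes were called without any single one of Eed KO replicate 1, Eed KO replicate 2, NT replicate 1 and NT replicate 2, and 1 without NT replicate 3. At day 7, 0 genes were called in Ezh2 KO and 0 in Brd8 KO in edgeR (0.171% and 5.05% of all genes called), with 0 and 10 at an unadjusted p under 0.05, and DESeq2 called 0 and 2. The sums at day 7 were 16680, 15250 and 16900 CPM in Eed KO and 16590, 15360 and 17240 CPM in Brd8 KO. They were all above those of NT, at 14260, 13650 and 13490 CPM. Ezh2 KO, with 13900, 14700 and 14360 CPM, overlapped with NT. The median log2 change at day 7 was 0.27 in Eed KO, 0.08 in Ezh2 KO and 0.28 in Brd8 KO.

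At day 9, 13 genes were higher and 0 lower in Eed KO (5.12% of all genes called, 2.87% higher), which were 2 H1, 9 H2B and 2 H4 genes. That count depended on single libraries: it was 30 without Eed KO replicate 1, 8 without replicate 2, 4 without replicate 3 and 3 without NT replicate 3. The sums were 6720, 12090 and 13460 CPM in Eed KO, against 7939, 8652 and 6229 CPM in NT, so replicate 1, which stood apart in its H2A and H3 counts, lay within the NT values. Without the 5 libraries, 40 genes were higher (9.35% of all genes called), among them 7 for H2A and 10 for H3. Hist1h2bp, Hist1h2bb and Hist1h2bn had the largest changes with all libraries (0.99, 0.97 and 0.94 on the log2 scale, adjusted p = 0.00185, 0.00182 and 0.00464 in edgeR). The call for Hist1h2bn was lost without NT replicate 3 (0.0615), and that for Hist1h2bb with only the compared groups in the fit (0.0674). Hist1h1a had 206.8, 230.5 and 265.9 CPM in Eed KO and 141.7, 172.2 and 123 CPM in NT, with no overlap.

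Brd8 KO had 25 higher and 0 lower genes at day 9, with 15.4% of all genes called and 7.62% higher. These were 4 H1, 13 H2B and 8 H4 genes, and 42 genes were higher without the 5 libraries (15.3% of all genes called). The group has 2 libraries, with sums of 11610 and 14460 CPM in Brd8 KO, against 7939, 8652 and 6229 CPM in NT. The count was 8 without Brd8 KO replicate 2 and 16 without NT replicate 3. The same H2B genes were at the head as in Eed KO, namely Hist1h2bp with 1.24, Hist1h2bn with 1.13 and Hist1h2bb with 1.10 on the log2 scale; the call for Hist1h2bn was lost without Brd8 KO replicate 2 (adjusted p = 0.0639 in edgeR). In Ezh2 KO at day 9, 0 histone genes were called in edgeR (0% of all genes called), 3 had an unadjusted p under 0.05 and DESeq2 called 0. Its sums were 8279, 7803 and 6060 CPM in Ezh2 KO, against 7939, 8652 and 6229 CPM in NT, within the range of NT but for the last, which came from 1 of the 5 libraries.

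The growth of the difference from day 7 to day 11 was tested as such. The effect at day 11 exceeded that at day 7 for 20 genes in Eed KO (6.27% of all genes called, 3.94% higher), for 11 in Ezh2 KO (1.39% called, 0.987% higher) and for 16 in Brd8 KO (4.45% called, 2.91% higher), and 0 went the other way. The median difference between the effects was 1.03, 0.89 and 0.88 on the log2 scale in Eed KO, Ezh2 KO and Brd8 KO. Without the 5 libraries there were 38, 23 and 32 genes (6.41%, 1.39% and 4.75% of all genes called). The count in Ezh2 KO was the least firm, with 4 to 15 genes when 1 library was left out. It was 4 without Ezh2 KO day 11 replicate 3, 4 without NT day 11 replicate 3 and 7 without Ezh2 KO day 11 replicate 2. It was 5, 7 and 6 without Ezh2 KO day 7 replicate 1, 2 and 3, and 5, 6 and 6 without NT day 7 replicate 1, 2 and 3. In Eed KO the number was 13 without its day 11 replicate 2. In Brd8 KO it was 9 without its day 7 replicate 1, 10 without its day 7 replicate 2 and 9 without NT day 11 replicate 3. In Nr6a1 KO 0 genes were called in edgeR (0.118% of all genes called), 5 had an unadjusted p under 0.05, DESeq2 called 0, and edgeR called 1 without NT day 11 replicate 2 and 1 without replicate 3. The knockout levels were themselves lower at the later day: Eed KO had 8383, 10230 and 8295 CPM at day 11 and 16680, 15250 and 16900 CPM at day 7.

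**Figure D3:**
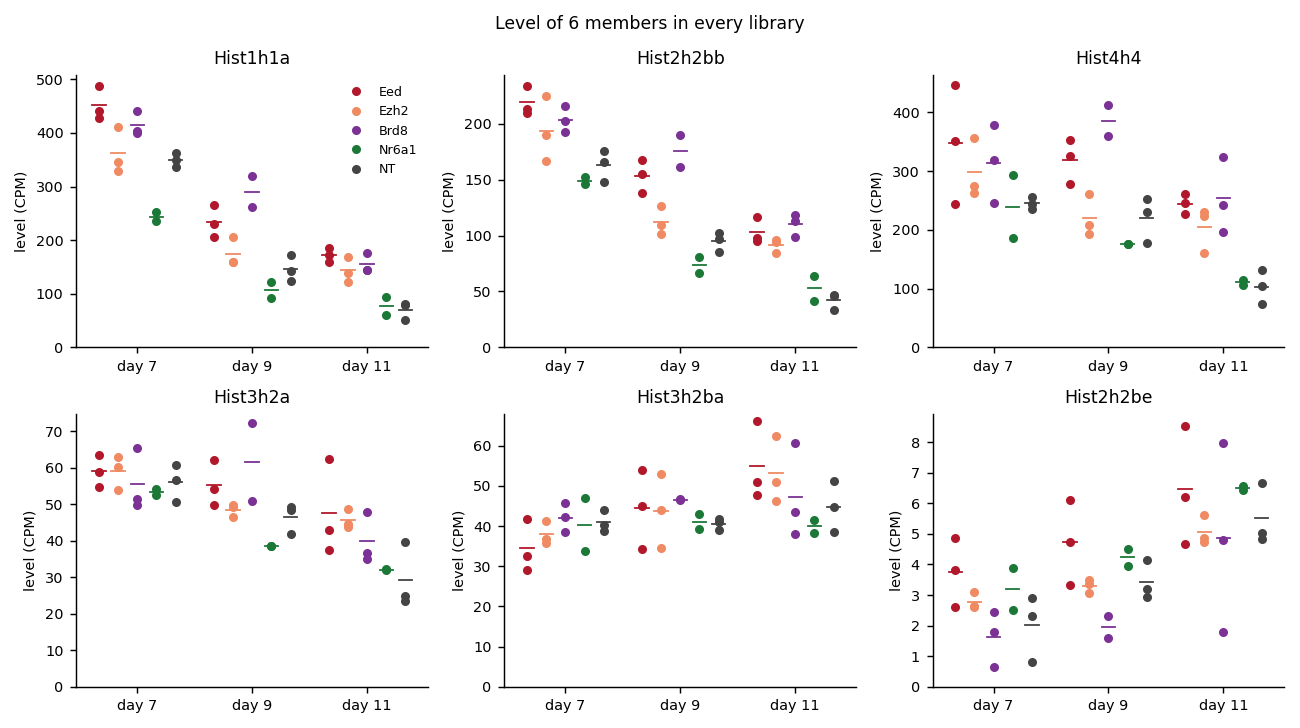
CPM of single members in each library by genotype and day, with bars at the group means. For Hist1h1a, the Eed KO libraries of day 11 lie between 159.2 and 185.9 CPM and those of NT between 50.6 and 81.3 CPM.

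Nr6a1 KO gave no call against NT of the same day at any of the 3 days with all libraries in the fit. NR6A1 is an orphan nuclear receptor also known as germ cell nuclear factor. In edgeR 0 histone genes were called at day 7, 0 at day 9 and 0 at day 11, with 0.118%, 0.132% and 0.0987% of all genes called, and DESeq2 called 1, 0 and 0. At day 11, 1 gene was called without NT replicate 2 and 1 without NT replicate 3. At an unadjusted p under 0.05 there were 19, 15 and 2. The median log2 change was -0.39 at day 7, -0.38 at day 9 and 0.00 at day 11. The groups have 2 libraries, with sums of 11110 and 7629 CPM at day 7, 5441 and 6256 CPM at day 9 and 3356 and 3873 CPM at day 11, against 14260, 13650 and 13490, then 7939, 8652 and 6229, then 3758, 4339 and 3254 CPM in NT. Both libraries of day 7 were below every NT library, and those of day 11 were within the NT range. Replicate 3 of days 7 and 11 was among the libraries that stood apart; without the 5 libraries 0 genes were called at each day (0.289%, 0.138% and 0.362% of all genes called), and the median change was -0.32 at day 7 and -0.16 at day 11, where 1 library remained in each group. Hist1h1a had 235.2 and 252.8 CPM in Nr6a1 KO at day 7 and 335.5, 363.2 and 350.1 CPM in NT, which did not overlap and did not pass the test over all genes.

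A few members left the common pattern. Hist3h2ba, an H2B gene of the Hist3 cluster, had 44.8, 51.1 and 38.6 CPM in NT at day 11 and 40.4, 38.7 and 44.0 CPM at day 7, a log2 change of 0.13 with adjusted p = 0.566 in edgeR. Its levels at the 2 days overlapped, and it was not called in any knockout at day 11, with log2 changes of 0.29, 0.25 and 0.08 in Eed KO, Ezh2 KO and Brd8 KO. Its neighbour Hist3h2a, an H2A gene, fell by 0.94 on the log2 scale in NT (adjusted p = 4.56e-06 in edgeR), a smaller change than the class median. Hist3h2a was higher at day 11 in Eed KO and Ezh2 KO (log2 changes 0.70 and 0.64, adjusted p = 0.000986 and 0.00756) and in Brd8 KO by 0.44 (adjusted p = 0.0495, and 0.0722 without the 5 libraries, where the call was lost).

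Hist2h2be was the single member that rose in NT. It is an H2B gene whose annotated transcript holds 2192 bases after the stop codon with no match to the stem-loop. It had 5.03, 6.68 and 4.83 CPM in NT at day 11, against 2.32, 2.92 and 0.821 CPM in NT at day 7. The days did not overlap, and the log2 change was 1.44 ± 0.44 (adjusted p = 0.00638 in edgeR, and 0.0615 without NT day 7 replicate 3, where the call was lost). In the knockouts at day 11 it was not called, with log2 changes of 0.23, -0.12 and -0.17 in Eed KO, Ezh2 KO and Brd8 KO, and with 6.21, 4.67 and 8.53 CPM in Eed KO. The testis-type genes Hist1h2aa and Hist1h2ba had counts in 7 and 15 of the 41 libraries, with 0.505 and 0.937 CPM at most.

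Genes of DNA replication moved with the histone genes. Of a list of 23 S phase genes, 23 were lower in NT at day 11 than at day 7, where 23.2% of all genes were. Their median log2 change was -1.66. At day 11, 19 were higher in Eed KO, 13 in Ezh2 KO, 16 in Brd8 KO and 0 in Nr6a1 KO against NT, and none was lower, with medians of 0.81, 0.48, 0.70 and 0.16. Of all genes, 13.1%, 5.19% and 10.1% were higher in Eed KO, Ezh2 KO and Brd8 KO, and 0.0987% were called in Nr6a1 KO. Mcm3, a subunit of the replicative helicase, had 102.8 ± 9.31 CPM in Eed KO, 75.0 ± 6.06 CPM in Ezh2 KO, 94.4 ± 19.2 CPM in Brd8 KO and 39.9 ± 5.24 CPM in NT at day 11 (SD, n = 3 each), and was called in all 3 knockouts. E2f1, a transcription factor of the G1 to S transition, changed by 1.99, 1.47 and 1.84 on the log2 scale. At day 9 the S phase genes called higher numbered 14 in Eed KO, 0 in Ezh2 KO and 20 in Brd8 KO, and at day 7 they numbered 9, 0 and 3. Of all genes at day 9, 2.87% and 7.62% were higher in Eed KO and Brd8 KO, and 0% were called in Ezh2 KO. At day 7, 2.86% were higher in Eed KO, and 0.171% and 5.05% were called in Ezh2 KO and Brd8 KO. Of 13 genes of G2 and mitosis, 13 were lower in NT at day 11 than at day 7, and 13, 11 and 13 were higher in Eed KO, Ezh2 KO and Brd8 KO at day 11. The shares of all genes for these comparisons are those given above.

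The summed histone level divided by the summed S phase level was 6.64 ± 0.93 in Eed KO, 6.29 ± 0.70 in Ezh2 KO, 6.40 ± 0.80 in Brd8 KO (SD, n = 3 each), 4.35 ± 0.20 in Nr6a1 KO (SD, n = 2) and 4.91 ± 0.55 in NT (SD, n = 3) at day 11. In NT it was 5.73 ± 0.66 at day 9 and 5.58 ± 0.11 at day 7. The knockouts at day 9 had 5.54 ± 1.31 (Eed KO), 5.25 ± 1.20 (Ezh2 KO), 6.10 ± 0.07 (Brd8 KO) and 5.56 ± 0.14 (Nr6a1 KO). Those at day 7 had 5.135 ± 0.372 (Eed KO), 5.146 ± 0.190 (Ezh2 KO), 5.573 ± 0.448 (Brd8 KO) and 4.435 ± 1.378 (Nr6a1 KO). Eed KO, Ezh2 KO and Brd8 KO thus did not have a higher ratio than NT at day 7. The part of a changed share of cycling cells in the histone differences was not tested. Over the 15 group means, the genes outside the clusters whose log2 CPM correlated most with the histone sum were Hmmr (r = 0.989), Nt5dc2, Mad2l1 and Aspm (0.987 each) and Hmgb2 (0.986). These correlations are across groups of the same libraries and describe them only.

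Genes that make and process histone mRNA changed less. Of 19 such genes, 11 were lower in NT at day 11 than at day 7 and 0 were higher, where 23.2% and 22% of all genes were. Their median log2 change was -0.40. Slbp, which encodes the protein that binds the stem-loop, had 23.3 ± 3.95 CPM in NT at day 11 and 43.0 ± 3.64 CPM at day 7 (SD, n = 3 each; log2 change -0.88, adjusted p = 1.51e-06 in edgeR). At day 11 it was higher in Eed KO by 0.54 (adjusted p = 0.00449) and in Brd8 KO by 0.42 (0.037), and 0.36 in Ezh2 KO did not pass (0.119). The call in Eed KO was lost without Eed KO replicate 3 (0.0876), that in Brd8 KO without Brd8 KO replicate 1, NT replicate 2 or NT replicate 3 (0.246, 0.198 and 0.0821), and both with only the compared groups in the fit (0.101 in Eed KO and 0.168 in Brd8 KO). Coil, which encodes a scaffold protein of Cajal bodies, was higher by 0.57, 0.64 and 0.77 in Eed KO, Ezh2 KO and Brd8 KO. Its calls were lost in Eed KO without Eed KO replicate 2 or 3 or NT replicate 2 or 3 (adjusted p = 0.169, 0.0735, 0.0571 and 0.214 in edgeR), in Ezh2 KO without Ezh2 KO replicate 1 or 3 or NT replicate 2 or 3 (0.224, 0.0633, 0.0716 and 0.273) and in Brd8 KO without Brd8 KO replicate 1 or NT replicate 3 (0.0721 and 0.0649). Npat, the transcriptional coactivator of these clusters, was not called, with -0.20 between NT day 11 and day 7 (adjusted p = 0.0669) and between -0.02 and 0.13 in these knockouts at day 11. In all, 2, 1 and 4 of the 19 genes were higher at day 11 in Eed KO, Ezh2 KO and Brd8 KO, where 13.1%, 5.19% and 10.1% of all genes were; the first 2 counts are near those shares.

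Variant histone genes outside the clusters mostly have mRNAs with a poly(A) tail that are made outside S phase too. In NT, 7 of 11 were lower at day 11 than at day 7 and 1 was higher, where 23.2% and 22% of all genes were. H3f3b, which encodes the replacement histone H3.3, was the gene that rose, with 618.6 ± 22.1 CPM at day 11 and 479.3 ± 10.6 CPM at day 7 (SD, n = 3 each; log2 change 0.37, adjusted p = 1.77e-06 in edgeR). It was not called in the knockouts at day 11, with 621.8 CPM in Eed KO and 620.4 CPM in Brd8 KO. H2afz, for H2A.Z, fell by 1.11 in NT and was higher by 0.64, 0.56 and 0.70 in Eed KO, Ezh2 KO and Brd8 KO at day 11. H1f0, the linker variant linked to cells that leave the cycle, had 117.8 ± 20.9 CPM in Eed KO, 105.2 ± 9.40 CPM in Ezh2 KO, 107.8 ± 10.2 CPM in Brd8 KO and 72.9 ± 14.7 CPM in NT at day 11 (SD, n = 3 each), and was called higher in all 3 (adjusted p = 0.000292, 0.0137 and 0.0039 in edgeR). Its call was lost in Ezh2 KO without Ezh2 KO replicate 2 or 3 or NT replicate 3 (0.0692, 0.05 and 0.142) and in Brd8 KO without NT replicate 3 (0.0528). Of 16 histone chaperone genes, 14 were lower in NT at day 11 than at day 7, where 23.2% of all genes were. At day 11, 7, 4 and 7 were higher in Eed KO, Ezh2 KO and Brd8 KO, where 13.1%, 5.19% and 10.1% of all genes were. Chaf1a, of the replication-coupled assembly factor CAF-1, was among them in each knockout. Atrx and Cabin1 were lower in Eed KO (log2 changes -0.27 and -0.26, adjusted p = 0.00977 and 0.0131 in edgeR), Atrx was lower in Brd8 KO (-0.26, adjusted p = 0.0168), and 0 were lower in Ezh2 KO. Of all genes, 23.7%, 7.98% and 17.6% were called in either direction in Eed KO, Ezh2 KO and Brd8 KO. The few lower genes are therefore not read as a trait of the chaperones.

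Summed levels of cell type markers also differed between some of the groups. A sum can be set by its most abundant gene, and the levels of single markers are not given here. Of 6 glial markers the summed level at day 11 was 805.9 to 1011 CPM in Eed KO, 1469 to 1686 CPM in Ezh2 KO, 1054 to 1175 CPM in Brd8 KO, 2932 to 3268 CPM in Nr6a1 KO and 2868 to 2948 CPM in NT; 1 of the 6 was at 0 throughout Eed KO. The 6 neural progenitor markers, none of them at 0 in any group, summed to 665.5 to 746.3 CPM in Eed KO, 839.1 to 996.1 CPM in Ezh2 KO, 672.8 to 772.3 CPM in Brd8 KO, 1024 to 1031 CPM in Nr6a1 KO and 1099 to 1190 CPM in NT. The 6 neuronal markers summed to 3603 to 3857 CPM in Eed KO, 4316 to 4809 CPM in Ezh2 KO, 3872 to 4419 CPM in Brd8 KO, 4255 to 4620 CPM in Nr6a1 KO and 4280 to 4631 CPM in NT at day 11. Progenitor, neuronal and glial markers were thus all detected in each of these groups. The 4 epithelial markers summed to 96.8 to 184.3 CPM in Eed KO, 8.07 to 31.0 CPM in Ezh2 KO, 4.05 to 23.8 CPM in Brd8 KO, 24.2 to 26.7 CPM in Nr6a1 KO and 11.5 to 21.0 CPM in NT. The 4 neural crest markers summed to 193.5 to 222.7 CPM in Eed KO, 108.7 to 221.4 CPM in Ezh2 KO, 213.7 to 296.6 CPM in Brd8 KO, 116.8 to 141.3 CPM in Nr6a1 KO and 101.3 to 125.4 CPM in NT. The 5 pluripotency markers summed to 25.5 to 39.5 CPM in Eed KO, 16.3 to 40.5 CPM in Ezh2 KO, 15.1 to 24.9 CPM in Brd8 KO, 40.3 to 54.3 CPM in Nr6a1 KO and 25.9 to 32.3 CPM in NT. The part of a changed mix of cells in the histone differences was not tested.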

How the data were processed

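The titles of the RNA sequencing libraries gave each its genotype and day. The values were the estimated counts per gene symbol that the authors deposited as raw counts, not all of them whole; they were rounded for testing. DESeq2 and mm10 are named in the submitters' processing notes. The sources used here do not give the annotation, the aligner or the counting tool. Per the labels' protocols, total RNA was ribodepleted and libraries were directional; the labels also call the source genomic, which the protocol contradicts. In R 4.3.3 with edgeR 4.0.16, genes were filtered with filterByExpr (15204 tested, 9206 not), TMM scaled the library sizes, and 1 quasi-likelihood model over all 41 libraries held a mean for each group (common biological coefficient of variation 0.182). P-values are two-sided, with Benjamini-Hochberg adjustment per comparison (threshold 0.05). Log2 changes and their SE come from that model. DESeq2 1.42.0 was an alternative, and the procedure was tested on simulated data.

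The members and the gene lists were chosen with earlier results of these data known. Named genes are the 4 members of each class with most counts, the 3 highest and 3 lowest called members of each comparison with at least 2 CPM in the higher group, members called against the majority, testis-type members, the top genes of each list and the 5 genes most like the histone sum; genes named outside this rule, Hist1h1a, Hist3h2a and Hist3h2ba among them, were chosen after their values were seen. Stem-loops were searched in GENCODE M21 transcripts and promoters taken from RefSeq GRCm38.p6. Alternatives were no low-count filter, DESeq2 and its size factors, only the groups compared in the fit, the replicate number as a block, leaving out each library, and leaving out the 5 libraries with few H2A and H3 counts (ratio under 0.75), the last chosen after seeing the data.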

Additional observations from a re-analysis of the deposited data

Results flagged for a closer look

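Results stand here because the effect of a knockout against NT differed between day 11 and day 7 by edgeR's quasi-likelihood test of that difference, with Benjamini-Hochberg adjustment. In Eed KO 20 histone genes differed, all with the larger effect at day 11, led by Hist1h2br (2.54 on the log2 scale), Hist1h4f (1.52) and Hist1h3c (1.26). In Brd8 KO 16 did, led by Hist1h4f (1.34), Hist1h2bp (1.13) and Hist1h2bm (1.12). In Ezh2 KO 11 did, led by Hist1h2bp (1.09), Hist1h2bh (1.08) and Hist2h4 (1.01). Hist1h2br was at 0 in 2 of the 3 NT libraries of day 11, and its difference was not called by DESeq2 (adjusted p = 0.2), without the 5 libraries with few H2A and H3 counts (0.0685) or, in 10 of 12 cases, without 1 library (0.0582 to 0.0939). Without 1 library, calls were also lost for Hist1h3c in Eed KO in 11 of 12 cases (0.053 to 0.0926), for Hist1h4f in Brd8 KO in 5 of 12 (0.0561 to 0.0905) and for Hist1h2bp in Ezh2 KO in 8 of 12 (0.0516 to 0.0923). Hist1h2bh in Ezh2 KO lost its call without NT day 11 replicate 3 (0.0557). All 3 knockouts were set against the same NT libraries. Groups here have 2 or 3 libraries, which is few for judging an outlying library, and no test for one was run.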

How the results depend on the processing

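The numbers of histone genes called are compared here with those of the report. No called direction of a named gene turned round under the alternatives run. With DESeq2's size factors, no summed level moved by more than the spread between its libraries. Leaving 1 library out of 2 or 3 cannot move a group mean by that much, so that limit says nothing about the 5 libraries. Without them the sums averaged 12780 CPM in Eed KO at day 9 and 8041 and 7241 CPM in Ezh2 KO at days 9 and 11. In Nr6a1 KO 1 library remained at days 7 and 11, with 11110 and 3356 CPM. Without a filter on low counts, the calls were 24 at day 7 and 50 at day 9 in Eed KO, 8 at day 9 and 59 at day 11 in Ezh2 KO, 22 at day 7 and 54 at day 9 in Brd8 KO, 31, 30 and 6 at days 7, 9 and 11 in Nr6a1 KO, 54 in NT at day 9 against day 7, 34 for Eed KO against Ezh2 KO, and 56, 55, 53 and 29 for the difference between days in Eed KO, Ezh2 KO, Brd8 KO and Nr6a1 KO. In that fit edgeR gave every gene nearly the same spread, with a median quasi-dispersion of 0.738 for the histone genes, against 4.04 with the filter. With only the compared groups in the fit, the calls were 30 at day 7 in Eed KO, 3 at day 7 in Ezh2 KO, 32 at day 7 and 38 at day 9 in Brd8 KO, 11 at day 7 and 3 at day 9 in Nr6a1 KO, 7 for Eed KO against Ezh2 KO, and 35, 25 and 26 for the difference between days in Eed KO, Ezh2 KO and Brd8 KO; the cause was not tested. DESeq2 called 23 at day 9 in Eed KO, 2 at day 7 in Brd8 KO, 1 at day 7 in Nr6a1 KO and 2 for Eed KO against Ezh2 KO. DESeq2's size factors in edgeR gave 1 for Eed KO against Ezh2 KO. Without the 5 libraries with few H2A and H3 counts, the calls were 40 at day 9 in Eed KO, 2 at day 7 and 42 at day 9 in Brd8 KO, and 38, 23 and 32 for the difference between days in Eed KO, Ezh2 KO and Brd8 KO. In comparisons with 0 calls, the median log2 change of the histone genes then changed sign, to 0.08 in Ezh2 KO at day 9 (-0.04 with all libraries) and to -0.16 in Nr6a1 KO at day 11 (0.00 with all). Leaving out 1 library at a time gave, at days 7, 9 and 11, 0 to 2, 3 to 30 and 42 to 49 in Eed KO, 0, 0 and 22 to 38 in Ezh2 KO, 0, 8 to 26 and 35 to 45 in Brd8 KO, and 0, 0 and 0 to 1 in Nr6a1 KO. It gave 24 to 35, 36 to 44 and 55 to 57 for NT at day 9 against day 7, day 11 against day 9 and day 11 against day 7, and 0 to 1 for Eed KO against Ezh2 KO. For the difference between days it gave 13 to 27 in Eed KO, 4 to 15 in Ezh2 KO, 9 to 19 in Brd8 KO and 0 to 1 in Nr6a1 KO. Where that left 1 library in a group, it was assumed to vary like the others. The share of all genes called under each setting is not given beside the counts in this paragraph. The counts therefore compare settings and do not show whether histone genes were called more often than other genes.

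The replicate numbers do not pair the libraries: correlations of the deviations of same-numbered libraries were -0.07 to 0.15, and in no comparison were all above 0.1. With the replicate number as a block, 1 gene was called at day 7 in Nr6a1 KO and 2 for Eed KO against Ezh2 KO, and the other counts stayed within 1.5 times those of the report. Genes with few counts or an identical copy limit what these depths can show.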
